A study of Mus musculus with 13 samples.

Results

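The ISG15 conjugation system was followed in whole-brain RNA of mice carrying the P195A change in Adar, the mouse counterpart of the human ADAR1 P193A variant. Its members were chosen by name, with earlier results of these data known. They are the modifier Isg15, its activating enzyme Uba7, its conjugating enzyme Ube2l6, its main mouse ligase Herc6 and its protease Usp18. These are 5 of the 54307 entries in the table of counts. Brains of 13 C57BL/6 mice were sequenced, 1 library each. In P195A/- mice (n = 3, 42 days old), the P195A allele lies opposite a null allele of Adar. A longer genotype label of the same mice writes the P195A allele on both sides together with AdarKO/+, and the short label was followed here. P195A/P195A mice (n = 4, 42 to 48 days) carry 2 mutant alleles, and P195A/+ mice (n = 3, 43 days) carry 1 mutant and 1 wild-type allele. WT mice (n = 3) carry 2 wild-type alleles and were 48 to 74 days old. Each genotype holds 1 male. All P195A/- and all P195A/+ mice were younger than all WT mice, so age and genotype cannot be told apart in those 2 comparisons. The same holds for P195A/- against P195A/+, where all mice were 42 and 43 days old, though these ages lie close together.

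ISG15 is a small ubiquitin-like protein whose gene is among the strongest targets of type I interferon. UBA7 activates it, UBE2L6 accepts it from UBA7, and in the mouse HERC6 is the main ligase that joins it to other proteins, as HERC5 does in human cells. USP18 removes ISG15 from its targets and, apart from that activity, binds the interferon receptor chain IFNAR2 and dampens signalling. ADAR1 edits adenosine to inosine in double-stranded RNA, and the p150 form, which is itself interferon-induced, keeps cellular RNA from setting off the sensor MDA5. In human cells and mice that lack this protection, ISG15 and USP18 belong to the genes commonly read as an interferon signature.

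All 5 members are protein-coding genes. In GRCm38 coordinates of GENCODE M21, Isg15 (ENSMUSG00000035692) lies on the minus strand at chr4:156199424-156200818, and the others lie on plus strands. Uba7 (ENSMUSG00000032596) is at chr9:107975505-107984060, Ube2l6 (ENSMUSG00000027078) at chr2:84798828-84810335, Herc6 (ENSMUSG00000029798) at chr6:57581000-57664632 and Usp18 (ENSMUSG00000030107) at chr6:121245906-121270917. RefSeq promoter windows of GRCm38.p6, running from 250 bases before to 50 bases after the start of transcription, were matched for Isg15, Uba7, Ube2l6 and Herc6. They were searched on both strands for GAAA followed after any 2 bases by a further GAAA, the core of the element that the interferon-activated factor ISGF3 binds. The Isg15 window holds 3 overlapping matches that cover 22 bases, 78 to 57 bases upstream of the start. They are shown because Isg15 was the member in which the motif was found, at chr4:156200871-156200900 on the minus strand, with the bases covered by the matches in capitals.
Isg15 promoter: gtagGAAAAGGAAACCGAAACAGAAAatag
The Uba7, Ube2l6 and Herc6 windows hold no exact match, which says only that these letters are not in those 300 bases. Of all 32851 promoter windows in the table, 1131 (3.44%) hold the motif. Among 45 interferon-stimulated genes outside the ISG15 system, 34 had a window and 16 of these (47.1%) held it. It was held by 1 of 7 genes (14.3%) for the interferon receptor and ISGF3 that had a window, and by 1 of 14 (7.14%) further partners of ISG15. Of genes for ubiquitin and other ubiquitin-like systems, 0 of 17 held it. The shares of these lists count genes, each by any of its windows, while the 3.44% counts single windows.

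Library totals ran from 13539148 to 22399005 estimated counts, and expression is given as CPM, estimated counts scaled to a common library size; at these totals a gene below 1 CPM rests on few fragments. Adar itself, scaled the same way, was at 196, 203 and 204 CPM in P195A/- brains, 282 to 345 CPM in P195A/P195A, 232 to 245 CPM in P195A/+ and 165 to 189 CPM in WT brains. These counts do not show the P195A base change itself, so they check the labels only in part. Adar was higher in P195A/P195A than in WT (log2 fold change 0.84, edgeR adjusted p = 5.91e-05) and lower in P195A/- than in P195A/P195A (-0.68, edgeR adjusted p = 0.000773). Every P195A/- brain was above every WT brain (0.16, edgeR adjusted p = 0.506), a pattern that 9.59% of tested genes shared. The null allele thus does not show as a lower level than WT. Every P195A/- brain was below every P195A/+ brain, which also carries 1 P195A allele (-0.25, edgeR adjusted p = 0.256), a pattern shared by 9.75% of tested genes. Markers of neurons, astrocytes, oligodendrocytes, microglia and endothelium were all detected. The 5 oligodendrocyte markers, which include Mbp, summed to 5920 to 6200 CPM in P195A/- brains, 4940 to 5550 CPM in P195A/P195A, 5350 to 6560 CPM in P195A/+ and 4770 to 5510 CPM in WT brains, so P195A/- lay above P195A/P195A and WT without overlap. The 6 neuron markers summed to 3390 to 3840 CPM in P195A/- brains, 3410 to 4110 CPM in P195A/P195A, 3450 to 3750 CPM in P195A/+ and 3860 to 4030 CPM in WT brains, so P195A/- and P195A/+ lay below WT without overlap. Among single tested genes, 9.59% were higher without overlap in P195A/- than in WT, and 2.62% higher in P195A/- than in P195A/P195A. Lower than WT without overlap were 10.5% in P195A/- and 6.31% in P195A/+. The part of these marker differences in the results on Isg15, Usp18 and the interferon-stimulated genes was not tested. The 6 microglia markers, which include Cx3cr1 and P2ry12, summed to 213 to 238 CPM in P195A/- brains, 171 to 277 CPM in P195A/P195A, 200 to 235 CPM in P195A/+ and 214 to 228 CPM in WT brains. T cell markers were low, at 2.8 to 5.93 CPM in P195A/-, 2.31 to 4.89 CPM in P195A/P195A, 4.09 to 7.15 CPM in P195A/+ and 6.17 to 7.58 CPM in WT brains. P195A/- and P195A/P195A thus lay below WT without overlap, as did 10.5% and 3.78% of single tested genes. The part of this difference in the results was not tested either. Monocyte and neutrophil markers summed to at most 11.4 CPM in any library. Replicate 3 of P195A/- stood apart by its mitochondrial share, 1.565% of counts against 0.457% to 0.79% in the other 12 libraries, and replicates 2 and 3 of P195A/P195A lay at opposite ends of the first principal component.

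The whole system was expressed at a low level in these brains. Per kilobase of exon, which allows genes of different length to be compared, the mean over 13 libraries was 0.284 CPM per kb for Isg15, 0.553 for Uba7, 0.705 for Usp18, 1.56 for Herc6 and 1.7 for Ube2l6. The ubiquitin counterparts stood far above them on the same scale. Ubb, which encodes polyubiquitin, had 122 CPM per kb, 430 times the level of Isg15. Uba1, the activating enzyme of ubiquitin, had 69.1 CPM per kb, 125 times the level of Uba7. Ube2l3, the ubiquitin relative of Ube2l6, had 12.3 CPM per kb and was the nearest, at 7.24 times. Herc6 was also the lowest of the HERC genes compared, with Herc4 at 4.56 times and Herc3 at 16.3 times its level. With lengths of the longest transcript in place of all exons, Ube2l6 and Herc6 changed places, at 2.18 and 3.05 CPM per kb.

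**Figure D1:**
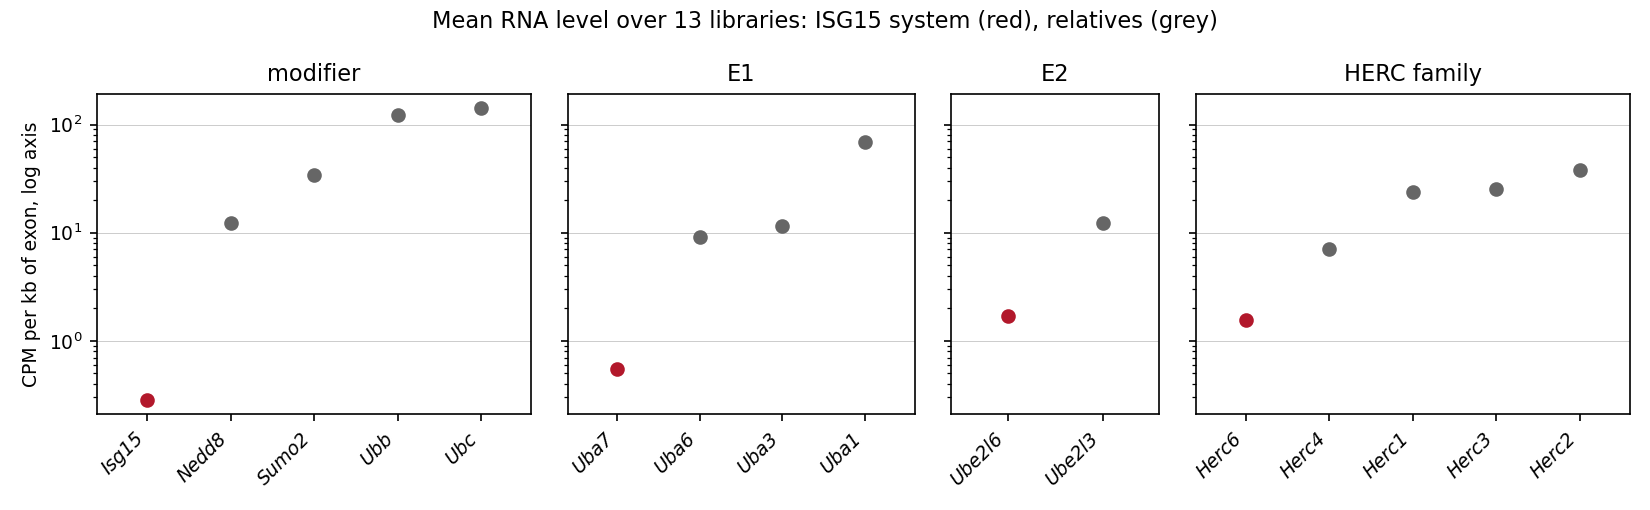
Mean RNA level over the 13 libraries in CPM per kb of exon, on a log axis, for Isg15, Uba7, Ube2l6 and Herc6 (red) and for genes of ubiquitin, NEDD8, SUMO and other HERC proteins (grey). Each red point is the lowest of its panel, from 0.284 for Isg15 to 1.7 for Ube2l6.

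Isg15, the modifier, gave between 0 and 11.8 estimated counts per library and did not pass the filter on low counts, so it has no row in the test across genes. Its level was 0.746, 0.548 and 0.222 CPM in P195A/- brains, 0.12, 0, 0.393 and 0.177 CPM in P195A/P195A, 0, 0.0483 and 0.095 CPM in P195A/+ and 0.0561, 0.158 and 0.226 CPM in WT brains. Of the P195A/- brains, 2 were above every other library, and the third, the male, lay within the range of WT. Summed over each genotype, Isg15 had 25 counts in P195A/-, 13 in P195A/P195A, 3 in P195A/+ and 9 in WT brains. The P195A/- to WT ratio, scaled for depth, was 3.24 with a 95% exact interval of 1.46 to 7.9, which covers counting error only. Over animals, the exact two-sided permutation test gave p = 0.2, where 0.1 is the smallest that 3 against 3 allows. Against P195A/P195A the ratio was 2.58 (1.27 to 5.49; exact permutation p = 0.114, smallest possible 0.0286), and these groups overlapped too. Against P195A/+ it was 9.91 (3.02 to 51.3), with an exact permutation p of 0.1, the smallest possible. These 2 groups did not overlap, and 8.34% of the tested genes were likewise higher in every P195A/- than in every P195A/+ brain. P195A/P195A and P195A/+ gave ratios to WT of 1.26 (0.497 to 3.33; exact permutation p = 0.829) and 0.327 (0.057 to 1.31; exact permutation p = 0.2). Adjusted over these 5 comparisons, the lowest p was 0.25. A near-identical entry on chromosome 17, AC151275.1, matches the Isg15 transcript over 482 bases at 95.2% identity and had 0 to 2 counts per library, so a few reads could belong to either.

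Usp18, the protease, had the largest fold change among the 4 members that could be tested. It was at 3.17, 4.51 and 2.16 CPM in P195A/- brains, 1.32, 1.46, 1.32 and 1.41 CPM in P195A/P195A, 0.873, 2.13 and 1.09 CPM in P195A/+ and 1.57, 2.21 and 2.35 CPM in WT brains. The P195A/- brains were all above the P195A/P195A brains and, by a narrow margin (2.16 over 2.13 CPM), the P195A/+ brains, while the lowest of them, the male, lay inside the WT range. P195A/- averaged 3.28 ± 1.18 CPM and P195A/P195A 1.38 ± 0.0691 CPM (SD, n = 3 and 4), a log2 fold change of 1.25 (95% interval 0.54 to 1.96). In edgeR's quasi-likelihood test its unadjusted p was 0.00182, rank 89 of 19962 genes, and its Benjamini-Hochberg adjusted p was 0.407, so it did not pass at 0.05. The 4 P195A/P195A values were closer together, with a coefficient of variation of 5.01%, than the 20.7% that counting alone gives on average at this depth. P195A/+ averaged 1.36 ± 0.669 CPM (SD, n = 3), and the log2 fold change of P195A/- against it was 1.26 (0.49 to 2.02; edgeR unadjusted p = 0.00301, adjusted p = 0.198).
Against WT, at 2.04 ± 0.413 CPM (SD, n = 3), the P195A/- brains had a Usp18 log2 fold change of 0.68 (-0.065 to 1.42; edgeR adjusted p = 0.512), and of 0.37 without replicate 2 of P195A/-. P195A/P195A and P195A/+ brains had Usp18 log2 fold changes against WT of -0.57 (-1.29 to 0.15; edgeR adjusted p = 0.833) and -0.58 (-1.34 to 0.19; adjusted p = 0.999). Single libraries moved the P195A/+ value, which was -0.33 without replicate 1 and -1.05 without replicate 2 of P195A/+. All 4 P195A/P195A brains were below all 3 WT brains, and the P195A/+ and WT brains overlapped. By mean level the genotypes ran from P195A/- through WT and P195A/P195A to P195A/+, and neither of the first 2 steps passed the threshold; P195A/P195A and P195A/+ overlapped and were not tested against each other. Gm44148, antisense to Usp18 over 124 bases of exon, had 1.31% as many counts.

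Uba7, the activating enzyme, varied more between animals of 1 genotype than any other tested member. It was at 6.28, 4.81 and 1.66 CPM in P195A/- brains, 7.24, 4.3, 3.88 and 2 CPM in P195A/P195A, 3.16, 1.69 and 4.89 CPM in P195A/+ and 2.75, 1.26 and 4.15 CPM in WT brains. High and low values stood in every genotype, and all groups overlapped. The coefficient of variation was 49.3% to 55.5% within genotypes, where counting alone gives 12% in P195A/-. On the log2 scale its standard deviation within genotypes was 0.82, the 98.6th percentile among the 500 tested genes nearest in level, whose median was 0.37. Log2 fold changes against WT were 0.63 in P195A/- (-0.59 to 1.85; edgeR adjusted p = 0.722), 0.67 in P195A/P195A (-0.48 to 1.82; adjusted p = 0.876) and 0.25 in P195A/+ (-0.97 to 1.47; adjusted p = 0.999). These intervals are wide enough to hold a doubling as well as no change. Single libraries moved all 3 values. The P195A/- value was 0.23 without replicate 1 and 1.03 without replicate 3 of P195A/-, and 0.3 without replicate 2 and 1.09 without replicate 3 of WT. The P195A/P195A value was 0.32 without its replicate 1, and 0.34 without replicate 2 and 1.13 without replicate 3 of WT. The P195A/+ value ran from -0.18 without its replicate 3 to 0.7 without replicate 3 of WT. Gm20661, which shares 233 bases of exon with Uba7 on the same strand, had 9.04% as many counts, so the assignment of reads between them is uncertain. With its counts added to those of Uba7, the P195A/+ value against WT was 0.058.

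Ube2l6, the conjugating enzyme, was at 2.55, 5.61 and 3.83 CPM in P195A/- brains, 3.23, 2.11, 3.04 and 3.3 CPM in P195A/P195A, 2.45, 3.19 and 4.04 CPM in P195A/+ and 3.59, 3.15 and 4.02 CPM in WT brains. The P195A/- brains held the highest value of all and also 1 of the lowest, and every pair of genotypes overlapped. Its log2 fold change was 0.15 in P195A/- against WT (-0.47 to 0.78; edgeR adjusted p = 0.882) and 0.45 in P195A/- against P195A/P195A (-0.15 to 1.04; adjusted p = 0.845).
Herc6, the ligase and the member with the most counts, had 14.9, 12.2 and 13.6 CPM in P195A/- brains, 16.6, 14.4, 12.5 and 13.6 CPM in P195A/P195A, 17.2, 14 and 11.1 CPM in P195A/+ and 15.7, 17.7 and 15.5 CPM in WT brains. WT had the highest mean, and the 3 P195A/- brains were all below the 3 WT brains. The log2 fold change between them was -0.27 (-0.62 to 0.089; edgeR adjusted p = 0.594), whose upper bound is close to 0. P195A/P195A and P195A/+ stood at -0.19 and -0.21 against WT, with edgeR adjusted p of 0.876 and 0.999. Herc6 and Usp18 thus differed in sign between P195A/- and WT, though neither change passed the threshold and their difference was not tested. Gm45193 shares 1269 bases of exon with Herc6 on the same strand and had 0.218% as many counts.

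**Figure D2:**
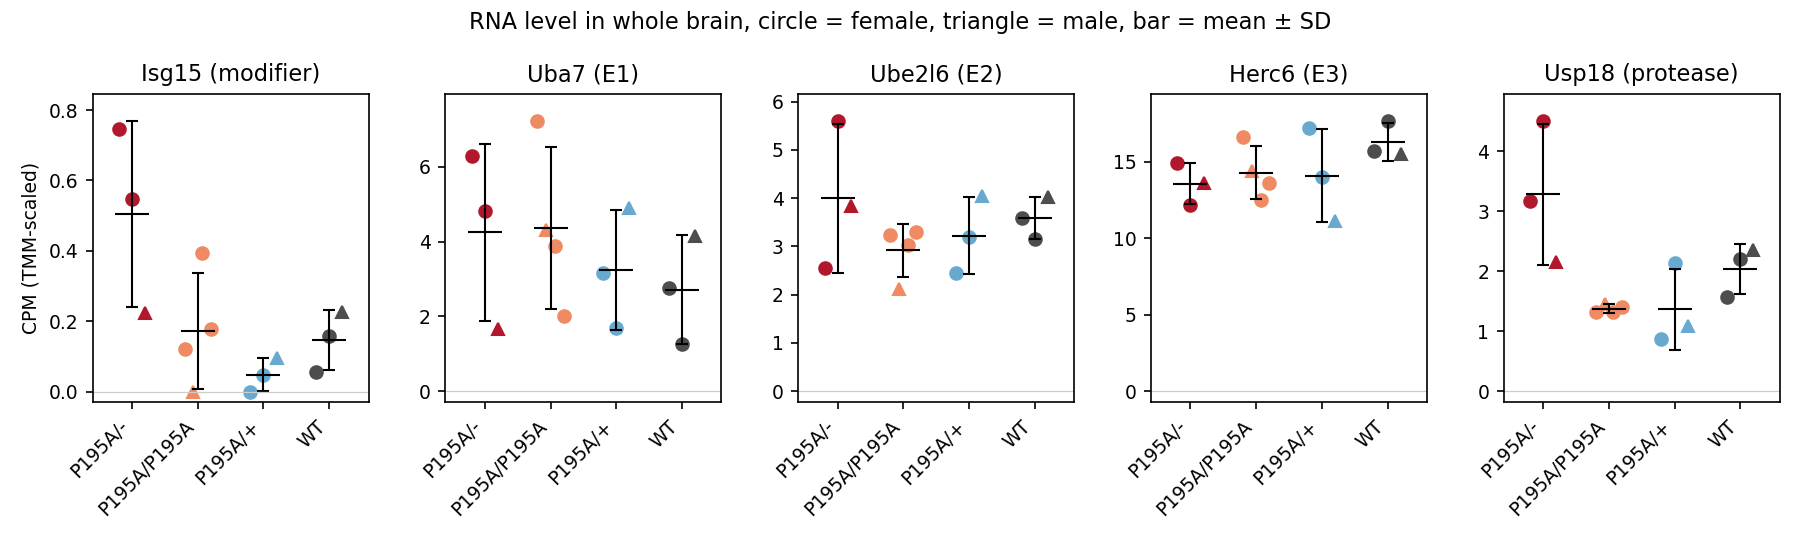
RNA level of the 5 members in CPM after TMM scaling (vertical axes, each its own range), 1 point per brain by genotype, circles for females and triangles for males, with the mean and SD in black. The P195A/- brains hold the highest Isg15 (0.746) and Usp18 (4.51) values, while Uba7 spreads from 1.26 to 7.24 with all genotypes overlapping.

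Across the 5 comparisons, 0 of the 4 tested members passed at an edgeR adjusted p under 0.05. In P195A/- against WT, 0.0351% of the 19962 tested genes passed. The share was 0.0501% in P195A/P195A against WT, 0.01% in P195A/+ against WT, 0.0401% in P195A/- against P195A/P195A and 0.0301% in P195A/- against P195A/+. So few genes passed anywhere that 0 of 4 does not set the system apart. At an unadjusted edgeR p under 0.05, Usp18 was called in P195A/- against P195A/P195A, as were 6.82% of all tested genes, and in P195A/- against P195A/+, as were 11.5%. No tested member was called at that level in the comparisons with WT, where the share of all tested genes was 10.6% for P195A/-, 5.89% for P195A/P195A and 4.48% for P195A/+.
Counted by groups that do not overlap, Herc6 was lower in every P195A/- than in every WT brain, as were 10.5% of tested genes, and no tested member was higher in this way, against 9.59% of tested genes. Usp18 was lower in every P195A/P195A than in every WT brain, as were 3.78%, and none was higher, against 2.69%. Between P195A/+ and WT no tested member was without overlap, against 5.63% of tested genes higher and 6.31% lower. Usp18 was higher in every P195A/- brain than in every P195A/P195A brain, as were 2.62% of tested genes, and none was lower, against 4%. It was also higher in every P195A/- brain than in every P195A/+ brain, as were 8.34%, and none was lower, against 9.75%. The 3 comparisons of P195A/- share the same P195A/- brains, and the 3 comparisons with WT share the same WT brains, so their values are not separate evidence. Whole-brain RNA cannot tell fewer cells of a type from less RNA per cell.

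**Figure D3:**
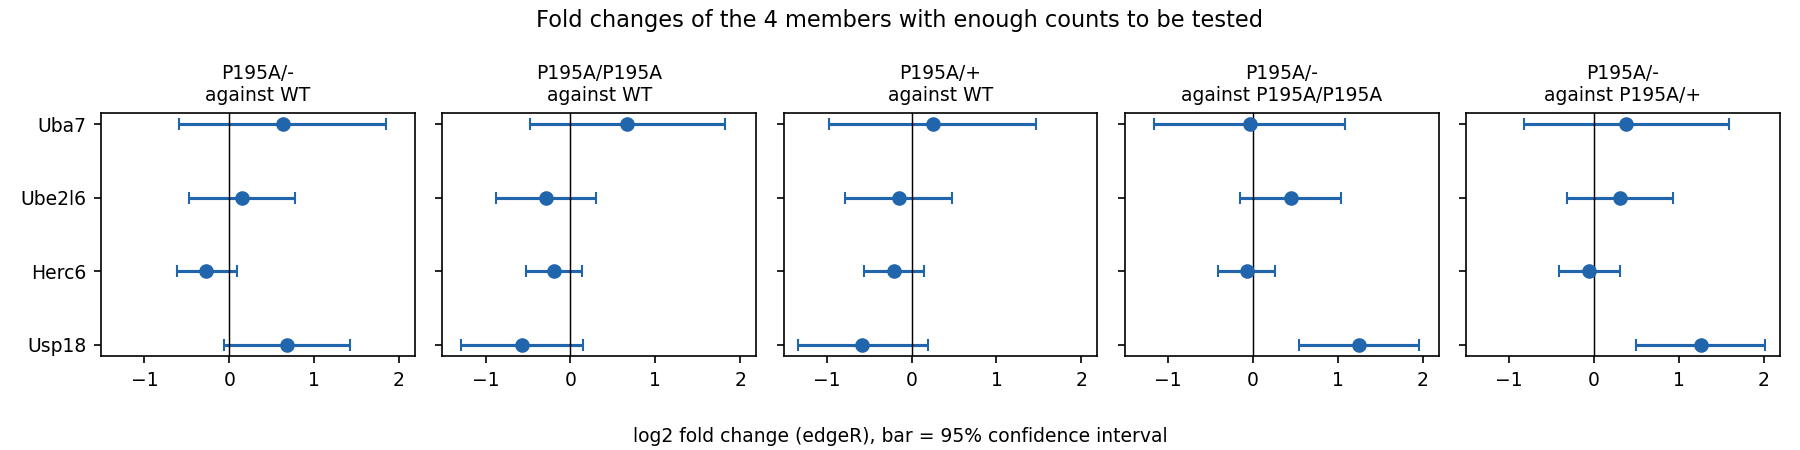
Log2 fold changes (horizontal axis) of Uba7, Ube2l6, Herc6 and Usp18 in the 5 comparisons, from edgeR, with bars for the 95% confidence interval. The interval leaves out 0 for Usp18 in P195A/- against P195A/P195A (0.54 to 1.96) and against P195A/+ (0.49 to 2.02), before adjustment over all genes, and for no other member or comparison.

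The genes around the system were followed as lists written by role, beginning with the route that induces it. Of the 8 genes of the interferon receptor and ISGF3, which include Ifnar1 and Irf9, all were tested and 0 passed in any comparison. Irf7, a transcription factor that interferon itself raises, averaged 2.64 ± 0.562 CPM in P195A/- and 1.16 ± 0.214 CPM in WT brains (SD, n = 3 each), a log2 fold change of 1.18 (edgeR adjusted p = 0.314). Against P195A/P195A and P195A/+ the P195A/- brains had Irf7 log2 fold changes of 1.16 and 1.64 (edgeR adjusted p = 0.57 and 0.169).
Of the 45 interferon-stimulated genes outside the ISG15 system, 40 were tested and 0 passed in either direction in any comparison. In P195A/- against WT, 35 had a positive and 5 a negative log2 fold change, with a median of 0.33, where the median of all tested genes was 0.02. Without replicate 2 of P195A/- the median was 0.18. Against P195A/P195A, 39 were positive with a median of 0.49, and against P195A/+ 35 were positive with a median of 0.69 (all tested genes 0.0037 and 0.022). P195A/P195A and P195A/+ against WT had 28 and 30 negative log2 fold changes of 40, with medians of -0.18 and -0.19 (all tested genes 0.0067 and 0.0041).
At an unadjusted edgeR p under 0.05, 7 of the 40 were called in P195A/- against WT, all higher, beside 10.6% of all tested genes, and 4 without replicate 2 of P195A/-. Against P195A/P195A there were 12, all higher, beside 6.82% of all tested genes, and against P195A/+ 16, all higher, beside 11.5%, or 8 without replicate 2 of P195A/-. P195A/P195A against WT had 1 higher and 7 lower, beside 5.89% of all tested genes. That total of 8 was 4 without replicate 2 or 3 of WT, 2 without replicate 1 or 2 of P195A/P195A and 3 without its replicate 4. P195A/+ against WT had 6, all lower, beside 4.48% of all tested genes, and 3 without replicate 3 of WT, 1 without replicate 1 and 3 without replicate 2 of P195A/+. The 1 higher in P195A/P195A was Dhx58, which encodes the RNA-sensing helicase LGP2 and had the smallest p of the list there, at 1.64 ± 0.362 CPM in P195A/P195A and 0.58 ± 0.209 CPM in WT brains (SD, n = 4 and 3), a log2 fold change of 1.49 (edgeR adjusted p = 0.694). Its log2 fold change in P195A/- against P195A/P195A was -0.66 (edgeR adjusted p = 0.785), opposite in sign to the list's median.
Ifit1, which binds foreign RNA ends, averaged 5.6 ± 1.06 CPM in P195A/- and 2.53 ± 0.817 CPM in WT brains (SD, n = 3 each), a log2 fold change of 1.14 (edgeR adjusted p = 0.221). Ifi44 averaged 3.59 ± 1.99 CPM in P195A/- and 0.611 ± 0.117 CPM in P195A/+ brains (SD, n = 3 each), a log2 fold change of 2.53 with an edgeR adjusted p of 0.0638, and Oasl2, a relative of the 2-5A synthetases, had 1.49 with 0.107 in that comparison. As the median over the 40 genes of log2 CPM, each centred on its mean over libraries, the P195A/- brains were at 0.29, 0.65 and 0.27, the P195A/P195A brains at -0.2, -0.28, 0.043 and -0.2, the P195A/+ brains at -0.27, -0.19 and -0.081, and the WT brains at 0.024, -0.07 and 0.079. The P195A/- brains were above all others, and the brain at 0.65, replicate 2, was also the one with the highest Usp18 and Ube2l6.

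Genes that work on ISG15 or resemble the system without being its interferon-induced core had medians near 0. Of 18 further ligases, proteases and partners reported for ISG15, which include the ligases Trim25 and Arih1, 17 were in the table and tested, and 0 passed in any comparison. Their median log2 fold change lay between -0.064 and 0.031 over the 5 comparisons. Usp2, a deubiquitinase also reported to act on ISG15, had the smallest p of the list in P195A/- against P195A/+, at 42.8 ± 3.15 CPM in P195A/- and 53.8 ± 2.45 CPM in P195A/+ brains (SD, n = 3 each), a log2 fold change of -0.33 (edgeR adjusted p = 0.228). Usp14, a protease of the proteasome, had -0.22 in that comparison (edgeR adjusted p = 0.318).
Of 27 genes for ubiquitin, NEDD8, SUMO, UFM1 and other ubiquitin-like modifiers with their enzymes, 25 were tested and 0 passed, with medians between -0.0062 and 0.025. Ufc1, the conjugating enzyme of UFM1, averaged 36.2 ± 1.54 CPM in P195A/- and 51.1 ± 2.5 CPM in P195A/+ brains (SD, n = 3 each), a log2 fold change of -0.5 (edgeR adjusted p = 0.117). Ubd, which encodes FAT10, a ubiquitin-like modifier induced by inflammatory cytokines, was at 0 CPM per kb in all 13 libraries.

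**Figure D4:**
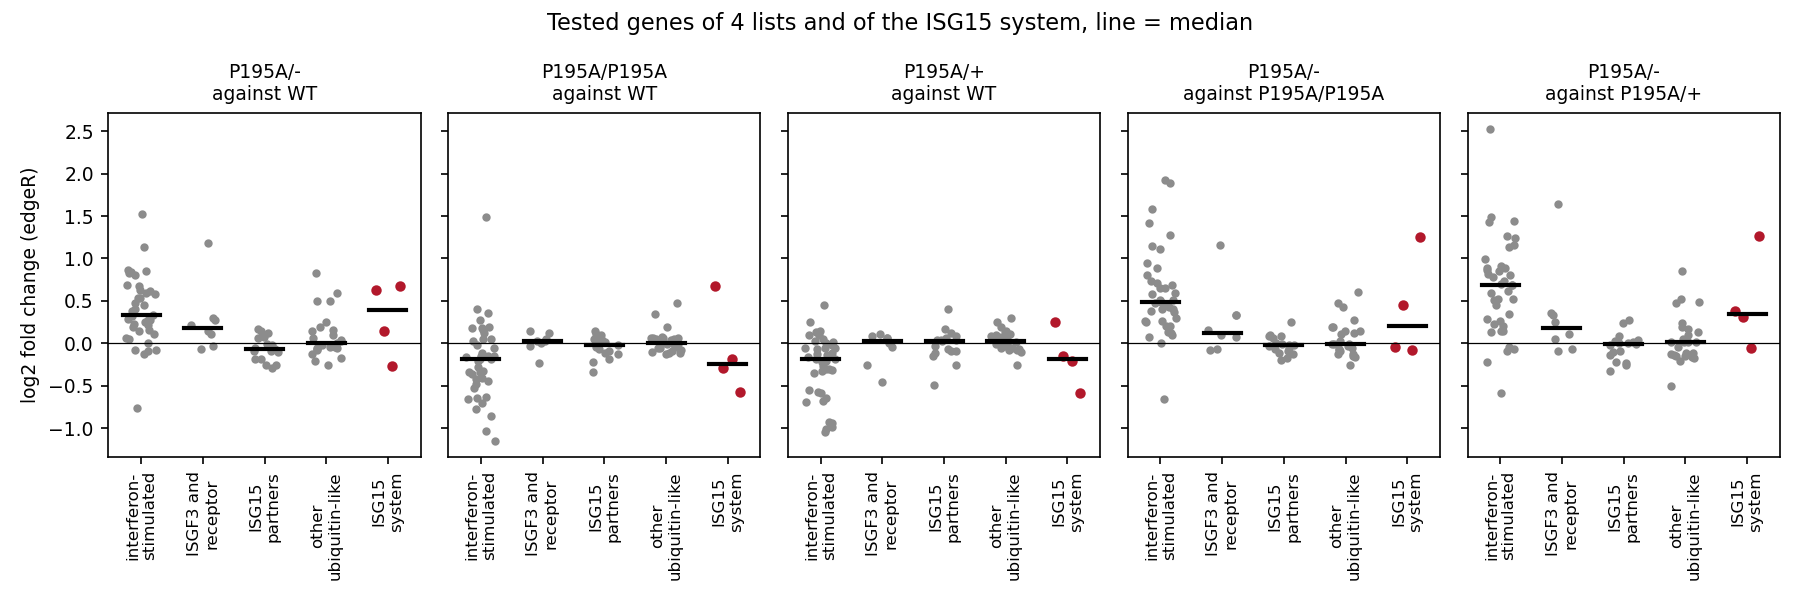
Log2 fold changes from edgeR (vertical axis) of the tested genes of 4 lists (grey points) and of Uba7, Ube2l6, Herc6 and Usp18 (red points, in that order from the left) in the 5 comparisons, with the median of each as a black line. The interferon-stimulated genes have medians of 0.33, 0.49 and 0.69 in the 3 comparisons of P195A/- and of -0.18 and -0.19 in P195A/P195A and P195A/+ against WT, while the ISG15 partners and other ubiquitin-like systems stay near 0.

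The members did not follow each other closely across brains. Over log2 CPM of the 13 libraries, Isg15 and Usp18 had the highest Pearson r of the 10 pairs, 0.69, and Ube2l6 and Herc6 the lowest, -0.45. Uba7 had an r of -0.0034 with Usp18 and -0.014 with Ube2l6. These are descriptions over libraries that share genotypes, and Isg15 rests on few counts. Among 17372 genes of at least 1 CPM, the 5 most like Isg15 were Irgm2 (0.89) and Iigp1 (0.86), both interferon-inducible GTPases, then Dclk3, Gpr6 and Zfp651 (0.84 to 0.85). The 5 most like Usp18 were Rabgef1 (0.9), Itga8 (0.88), Myo18a (0.86), Plxnb3 (0.85) and the interferon-stimulated gene Ifi44 (0.84). For Ube2l6 they were 1110032A03Rik (0.88), the Fc receptor gene Fcgr1 (0.87), Ahnak, Hivep1 and Plbd2 (0.85 to 0.86). For Uba7 they were Tmem39a (0.9), Cdk2 (0.83), Alpk1, Surf6 and Pip5kl1 (0.79 to 0.8), and for Herc6 Gm38336 (0.89), A430010J10Rik (0.83), Nadsyn1, Rps6ka3 and Pcdhb17 (0.79 to 0.81).

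RNA editing, the reaction that ADAR1 carries out, was hardly covered in these transcripts. The deposited tables that compare pairs of genotypes list 0 sites within any of the 5 members. The tables per library list none in Isg15, Uba7 or Usp18. In Herc6 they list 3 intronic positions on chromosome 6 (57623379, 57623409 and 57623567, mm10) in 5 libraries, each with 1 to 3 reads of G and at most 3 of A. Within an annotated UTR of Ube2l6 they list position 84809672 of chromosome 2 in 5 libraries, with 1 or 2 reads of G beside 3 to 9 of A. Both genes had such reads in P195A/- and in WT brains, and no level of editing can be compared between genotypes at this coverage.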

How the data were processed

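Per the submitters' processing notes, fastp 0.19.5, Salmon and edgeR were used. The authors deposited estimated counts per gene, whose library totals ran from 13539148 to 22399005. No source used here gives Salmon's version or the annotation release. Of 54307 entries, 51482 matched GENCODE M21 by gene ID. The authors also deposited base counts at known editing sites, made per the file headers with JACUSA2 2.0.0-RC5; the build is mm10.

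Values were rounded to whole numbers, then modelled in edgeR 4.0.16 under R 4.3.3 (TMM scaling, filterByExpr with a minimum count of 10, quasi-likelihood, robust), with all 13 libraries in 1 fit and 1 coefficient per genotype. This left 19962 genes, with a biological coefficient of variation of 19.1%. P-values were adjusted over all of them by the Benjamini-Hochberg method, with a threshold of 0.05. Because Isg15 failed the filter, its summed counts were compared as ratios with exact 95% intervals and its CPM by exact permutation tests over animals. Intervals from counts cover counting error only. The procedure was tested on simulated counts. The 5 members, the lists and the tests were chosen with earlier results of these data known. Named in each comparison were the members and, per list, up to 3 genes with the smallest p, and, per member, the 5 genes of at least 1 CPM with the highest Pearson r. The values of 1 gene that this rule names are not reported here. Alternatives were no filter, raw totals, DESeq2 1.42.0, limma-voom (limma 3.58.1), sex, age, a replicate block, 2-genotype fits and leaving out libraries. Proteins of the members and a Usp18 promoter window were not used here.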

Additional observations from a re-analysis of the deposited data

Results flagged for a closer look

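In P195A/- against WT, and for Uba7 also against P195A/+, the differences in females and in males had opposite signs for 3 members. For Isg15 the males were nearly equal, at 4 estimated counts in P195A/- and 5 in WT, so its sign in males carries no weight. Each genotype has 1 male, so every male value is a single brain, and the members were picked because females and males differed in sign; the differences are therefore given as values with no test. Isg15 averaged 0.647 CPM in P195A/- and 0.107 CPM in WT females, while the males stood at 0.222 and 0.226 CPM. Uba7 averaged 5.54 CPM in P195A/- and 2 CPM in WT females, against 1.66 CPM in the P195A/- and 4.15 CPM in the WT male, and the log2 fold change was 2.79 higher in females. In P195A/- against P195A/+ it was 2.75 higher in females (5.54 and 2.42 CPM in females, 1.66 and 4.89 CPM in males). For Usp18, at 3.84 and 1.89 CPM in P195A/- and WT females and 2.16 and 2.35 CPM in the males, it was 1.14 higher in females. The P195A/- male is also the library with the mitochondrial share of 1.565%, whose part in these values was not tested.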

How the results depend on the processing

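Of 320 member fold changes under other settings, 0 passed the threshold (lowest adjusted p = 0.104). DESeq2 gave no adjusted p in some cases, among them Uba7, Ube2l6 and Usp18 in P195A/- against WT, and these could not pass. Leaving out 1 library reversed the direction of 10 and females alone of 1, none of them past the threshold in the first place, with ranges of -0.17 to 0.39 for Ube2l6 in P195A/- against WT, -0.35 to 0.018 in P195A/+ against WT and -0.023 to 0.54 in P195A/- against P195A/+, of -0.18 to 0.7 for Uba7 in P195A/+ against WT, -0.43 to 0.35 in P195A/- against P195A/P195A and -0.018 to 0.81 in P195A/- against P195A/+, and of -0.21 to 0.098 for Herc6 in P195A/- against P195A/+. In females alone, Uba7 in P195A/- against P195A/P195A was at 0.35. The cause was not tested. Usp18 kept its direction, at 0.95 to 1.51 against P195A/P195A (adjusted p 0.176 to 0.906), 0.95 to 1.72 against P195A/+ (0.104 to 0.633) and 0.37 to 1.02 against WT (0.35 to 0.798). The range of adjusted p against WT leaves out DESeq2, which gave none. All 65 Isg15 ratios stayed within the main counting interval of their comparison. That interval is wide, 1.46 to 7.9 in P195A/- against WT, so it lets large moves through. In females alone, Isg15 averaged 0.647 CPM in P195A/- and 0.107 CPM in WT brains. Without the filter, edgeR gave Isg15 log2 fold changes of 1.7 in P195A/- against WT (adjusted p = 0.733) and 3.17 against P195A/+ (adjusted p = 0.322).

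Counts of genes passing over all genes moved more. For P195A/- against WT, 7 genes passed, with 16 unfiltered, 16 in the 2-genotype fit, 164 by DESeq2 and 2 to 6 without 1 library. For P195A/P195A against WT, 10 passed, with 5 in the 2-genotype fit, 5 at 48 days, 18 by DESeq2 and 5 to 13 without 1 library. For P195A/+ against WT, 2 passed, with 7 unfiltered, 0 in females, 11 in the 2-genotype fit, 19 by DESeq2 and 1 to 2 without 1 library. For P195A/- against P195A/P195A, 8 passed, with 29 unfiltered, 5 in the 2-genotype fit, 51 by DESeq2 and 5 to 15 without 1 library. For P195A/- against P195A/+, 6 passed, with 49 unfiltered, 2 in females, 272 by DESeq2 and 3 to 8 without 1 library. Per kb of the longest transcript, levels were 1.02 for Uba7, 2.18 for Ube2l6, 3.05 for Herc6 and 1.11 for Usp18. Same-numbered brains deviated together weakly at most (correlations -0.074 to 0.227, median 0.034, over 18 pairs, of which 4 were above 0.1). The other 45 pairs had a median of -0.016. Correlations this weak cannot settle whether the replicate numbers pair the brains. With the replicate block, 6, 8, 2, 7 and 7 genes passed in the 5 comparisons in the order above.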
